A study of Mus musculus with 6 samples.

Results

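Interleukin-10 and the genes around it were examined in mouse regulatory T cells homozygous or heterozygous for a gfp allele of Blimp1. The set held 7 genes, namely Il10, Ebi3, Maf, Fgl2, Areg, Il10ra and Il10rb, and every probe that the platform annotation gives 1 of these symbols was taken. This gave 7 probes for 6 of the 7 genes, out of 29976 probes with a single symbol for 17711 genes. No probe carried the symbol Areg, the gene of amphiregulin, an EGF receptor ligand that regulatory T cells use in tissue repair, so it was not analysed here. The study compared 3 samples of Blimp1 gfp/gfp regulatory T cells with 3 of Blimp1 +/gfp regulatory T cells. All were labelled as bone marrow of the C57/B6 strain, and all carried at least 1 gfp allele, so no sample of wild-type Blimp1 was among them. As background, the allele carries a gfp reporter inserted in Prdm1, which encodes Blimp-1, so that transcribing cells fluoresce, and homozygous cells make no functional Blimp-1. The labels give no age, sex, sort or gate, and do not say whether samples are of separate animals. The p-values therefore set the genotype difference only against the variation among these samples, and that variation may be technical.

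IL-10 is a secreted cytokine with which regulatory T cells restrain inflammation at barrier surfaces. It binds a receptor of a ligand-binding chain, encoded by Il10ra, and a shared chain, encoded by Il10rb, and signals through JAK1, TYK2 and STAT3. Blimp-1 is known as a factor that effector regulatory T cells need to produce IL-10, and c-Maf, encoded by Maf, is another activator of Il10 in T cells. Ebi3 encodes a subunit shared by the cytokines IL-27 and IL-35, and Fgl2 a fibrinogen-like protein that is secreted by regulatory T cells and acts through inhibitory Fc receptors.

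On the mouse build GRCm38.p6, RefSeq places Il10 at chr1:131019845-131024970, Ebi3 at chr17:55952623-55957022, Maf at chr8:115703253-115706894, Fgl2 at chr5:21372673-21378386, Il10ra at chr9:45253837-45269149 and Il10rb at chr16:91406157-91425834. Of the 7 members, 3 are in the RefSeq promoter table for GRCm38.p6. Sequences are shown for the 2 of these that were measured, because Ebi3 passed the genotype test and Fgl2 did not. Each is the 250 bases before the transcript start on the plus strand, chr17:55952373-55952622 for Ebi3 and chr5:21372423-21372672 for Fgl2. Capitals mark GAAAG, the inner part of the known Blimp-1 consensus, and TGCTGA, part of the site that Maf factors bind, searched on both strands, so that a GAAAG of the minus strand is printed as CTTTC.
Ebi3: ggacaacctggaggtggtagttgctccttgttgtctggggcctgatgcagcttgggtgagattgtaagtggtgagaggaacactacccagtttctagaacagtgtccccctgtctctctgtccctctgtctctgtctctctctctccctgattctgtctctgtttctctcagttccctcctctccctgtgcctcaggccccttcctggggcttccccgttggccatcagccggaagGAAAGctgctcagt
Fgl2: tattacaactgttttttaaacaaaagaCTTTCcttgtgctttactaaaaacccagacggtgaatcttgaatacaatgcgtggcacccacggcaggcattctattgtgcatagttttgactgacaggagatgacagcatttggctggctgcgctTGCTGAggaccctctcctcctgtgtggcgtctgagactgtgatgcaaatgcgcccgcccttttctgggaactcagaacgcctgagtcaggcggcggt
The Ebi3 window held 1 GAAAG, on the plus strand at position -14 from the transcript start, and no TGCTGA. The Fgl2 window held 1 GAAAG, on the minus strand at position -223, and 1 TGCTGA at position -97. These letters are common, since 51.5% of all 32851 promoter windows of this length held GAAAG and 16.1% held TGCTGA. The longer GTGAAAG, in 3.57% of windows, was in neither.

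RNA of each sample was read on 1 Illumina array with 46632 probes, of which 31.5% to 34.5% were detected (detection p under 0.05). Levels below are background-corrected, quantile-normalized log2 intensities, and a difference is Blimp1 gfp/gfp minus Blimp1 +/gfp with the standard error of the limma fit. A probe's level cannot be set against that of another probe. All 10 T cell and regulatory T cell markers with a probe, among them Foxp3 and Cd3e, were detected on all 6 arrays, as was Cd8b1, a chain of the CD8 coreceptor (11.13 to 12.03 in Blimp1 gfp/gfp, 11.36 to 11.86 in Blimp1 +/gfp). Blimp1 +/gfp replicate 3 stood apart, with the largest summed intensity of 7 monocyte and macrophage markers (15862, against 2035 to 3234 in Blimp1 gfp/gfp and 3294 and 3874 in the other Blimp1 +/gfp samples) and of 8 dendritic cell markers (69506, against 11094 to 19416 in the other 5 samples). Other cell types varied too, since the summed intensity of 7 neutrophil markers was 332 to 414 in Blimp1 gfp/gfp and 300, 1451 and 1694 in Blimp1 +/gfp replicates 1, 2 and 3. That of 4 erythroid markers was 1085 to 7991 in Blimp1 gfp/gfp and 174 to 11124 in Blimp1 +/gfp. The Y-linked gene Eif2s3y was detected on 0 of 3 arrays of Blimp1 gfp/gfp, against 3 of 3 of Blimp1 +/gfp, so sex composition and genotype cannot be told apart. The 3 arrays of a genotype also shared 1 BeadChip, with 2 BeadChips in all, so effects of BeadChip and of genotype cannot be told apart either. Prdm1 was higher in Blimp1 gfp/gfp on its brighter probe (7.48 ± 0.31, against 5.69 ± 0.17 in Blimp1 +/gfp; SD, n = 3 each), and since the probe's position relative to the cassette is unknown here, it checks nothing about the labels. In these bulk samples fewer cells that make a transcript and less transcript per cell cannot be told apart.

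Of the 6 members measured, all passed the filter on dim probes, and 3 fell in Blimp1 gfp/gfp, namely the cytokine Il10, the cytokine subunit Ebi3 and the receptor chain Il10ra. None rose. Over all 8743 genes tested, 4.12% were past the threshold of the same fit (limma, Benjamini-Hochberg adjusted p under 0.05), with 1.69% past it and lower in Blimp1 gfp/gfp and 2.42% past it and higher. Of the 360 genes called, 58.9% were higher in Blimp1 gfp/gfp, and with median scaling, which moved the median difference of all genes up by 0.13, 71.0% of 414 were. The median difference was -0.76 over the 6 members and 0.03 over all genes tested. On the brightest probe of each gene, the 3 members that fell were also the 3 whose values did not overlap between genotypes. Values did not overlap for 25.8% of all genes tested (10.4% with lower and 15.4% with higher values in Blimp1 gfp/gfp).

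**Figure D1:**
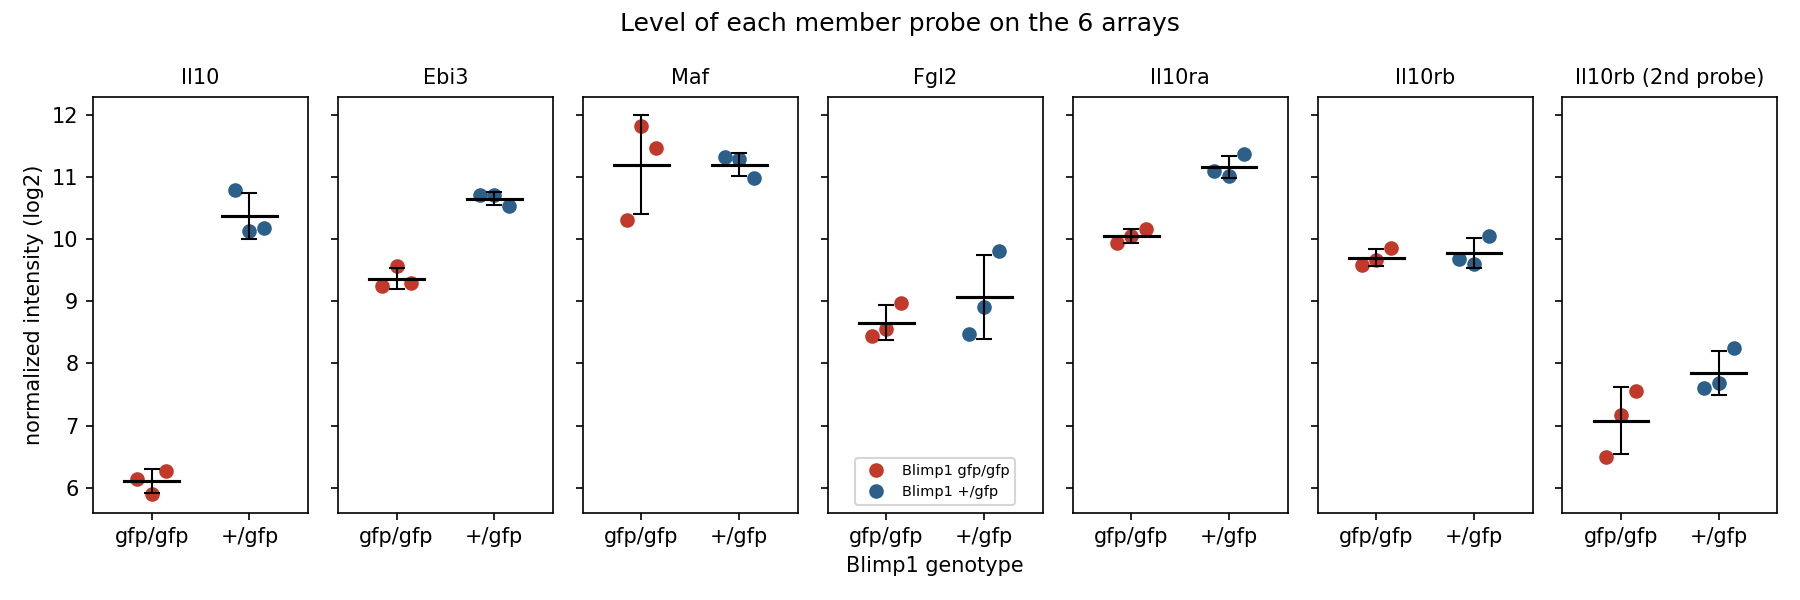
Normalized log2 intensity of the 7 probes (y axis) by Blimp1 genotype (x axis), with 1 point per array, the group mean as a bar and the SD as whiskers (n = 3). Il10, Ebi3 and Il10ra lie lower on all 3 Blimp1 gfp/gfp arrays than on any Blimp1 +/gfp array, while Maf, Fgl2 and the brighter Il10rb probe overlap. The dimmer Il10rb probe does not overlap either, but did not pass the test.

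Il10 was close to background in Blimp1 gfp/gfp. Its single probe, ILMN_1238505, read 6.14, 5.90 and 6.27 on the Blimp1 gfp/gfp arrays, against 10.80, 10.13 and 10.18 on the Blimp1 +/gfp arrays. No Blimp1 gfp/gfp array came within 3 log2 units of any Blimp1 +/gfp array, and within Blimp1 +/gfp replicate 1 was the highest. Before any correction, the bead signals were 201.9, 201.3 and 212.3 in Blimp1 gfp/gfp, where the median of all probes was 159.3 to 164.8, against 1963, 1282 and 1055 in Blimp1 +/gfp. The probe counted as detected on all 6 arrays, but with detection p of 0.0193, 0.0212 and 0.00998 in Blimp1 gfp/gfp and 0 in each Blimp1 +/gfp sample, so 1 of 3 Blimp1 gfp/gfp arrays would pass a detection limit of 0.01.

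The means were 6.10 ± 0.19 in Blimp1 gfp/gfp and 10.37 ± 0.37 in Blimp1 +/gfp (SD, n = 3 each), and the difference of -4.27 ± 0.22 (95% interval -4.79 to -3.75) is a 19.3-fold lower normalized intensity (limma, Benjamini-Hochberg adjusted p = 0.000816). Il10 had the 4th lowest difference and the 3rd smallest p of the 8743 genes. Its size depended on how background was handled, since it was -2.85 with no background correction and -3.23 with normexp at an offset of 50. It was past the threshold in all 19 alternatives, with differences of -4.41 to -4.05 over the 6 omissions of a single array, among them -4.41 without Blimp1 +/gfp replicate 3. In the authors' deposited table of log2 values the probe averaged 6.12 in Blimp1 gfp/gfp and 10.35 in Blimp1 +/gfp, a difference of -4.23.

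Ebi3, the IL-27 and IL-35 subunit, fell by much less than Il10 and stayed well above background. Probe ILMN_2662322 read 9.25, 9.57 and 9.29 on the Blimp1 gfp/gfp arrays, against 10.72, 10.71 and 10.55 on the Blimp1 +/gfp arrays. The genotypes did not overlap, and the gap between them was wider than the spread within either. The means were 9.37 ± 0.17 in Blimp1 gfp/gfp and 10.66 ± 0.10 in Blimp1 +/gfp (SD, n = 3 each), a difference of -1.29 ± 0.15 (95% interval -1.64 to -0.93) and a 2.44-fold lower intensity (limma, Benjamini-Hochberg adjusted p = 0.00844). The call ended without Blimp1 +/gfp replicate 1, where the difference was -1.25 (limma, Benjamini-Hochberg adjusted p = 0.0517), and it held in the other 18 alternatives. Ebi3 is also known in dendritic cells and B cells. The dendritic cell markers were highest in Blimp1 +/gfp replicate 3, in which Ebi3 was the lowest of the Blimp1 +/gfp samples, and without that sample the difference was -1.36. The summed intensity of 7 B and plasma cell markers was 5948 to 6829 in Blimp1 gfp/gfp and 7483 to 9396 in Blimp1 +/gfp, with 3 or 4 detected per Blimp1 gfp/gfp array and 2 or 3 per Blimp1 +/gfp array. Of the 7, Pax5, Jchain and Sdc1 were not detected on any array. Cd79a was detected on 3 Blimp1 gfp/gfp arrays and 1 Blimp1 +/gfp array, Ms4a1 on 2 Blimp1 gfp/gfp arrays and 0 Blimp1 +/gfp arrays, and Cd79b on all 6 arrays (9.89 to 11.18 in Blimp1 gfp/gfp, 9.64 to 10.92 in Blimp1 +/gfp). Xbp1, which T cells also express, was the brightest of the 7, with 12.11 ± 0.13 in Blimp1 gfp/gfp and 12.77 ± 0.20 in Blimp1 +/gfp (SD, n = 3 each). The parts of dendritic cells and of B cells in the result were not tested.

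Maf, the activator of Il10, had nearly equal means in the genotypes, with a wide spread among the Blimp1 gfp/gfp samples. Probe ILMN_2473066 read 10.31, 11.83 and 11.47 on the Blimp1 gfp/gfp arrays, against 11.32, 11.30 and 10.99 on the Blimp1 +/gfp arrays. Blimp1 gfp/gfp replicate 1 was below every other array and Blimp1 gfp/gfp replicates 2 and 3 were above every Blimp1 +/gfp array, so the Blimp1 gfp/gfp samples lay on both sides of the Blimp1 +/gfp ones. Blimp1 gfp/gfp replicate 1 also had the smallest summed intensity of the 10 T cell and regulatory T cell markers. It was 90850 there, against 111760 to 126422 on the other arrays. The part of cell composition in the Maf values was not tested. The means were 11.20 ± 0.79 in Blimp1 gfp/gfp and 11.20 ± 0.19 in Blimp1 +/gfp (SD, n = 3 each). The difference of 0.00065 ± 0.38 had a 95% interval of -0.90 to 0.90 (limma, Benjamini-Hochberg adjusted p = 0.999). It moved to 0.45 with replicate 1 of Blimp1 gfp/gfp left out and to -0.32 with replicate 2 left out. The within-genotype SD of Maf, pooled over both genotypes, was 0.58, at the 91.4th percentile of all genes tested, against 0.14 for Ebi3, at the 18.1st percentile.

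Fgl2, the secreted fibrinogen-like effector, did not pass the test. Its probe, ILMN_2654554, read 8.45, 8.55 and 8.98 on the Blimp1 gfp/gfp arrays, against 8.47, 8.92 and 9.81 on the Blimp1 +/gfp arrays. All 3 Blimp1 gfp/gfp values lay within or just below the Blimp1 +/gfp range, and 1 array, Blimp1 +/gfp replicate 3, was above the rest. The means were 8.66 ± 0.28 in Blimp1 gfp/gfp and 9.07 ± 0.68 in Blimp1 +/gfp (SD, n = 3 each), a difference of -0.41 ± 0.35 (95% interval -1.23 to 0.41; limma, Benjamini-Hochberg adjusted p = 0.611). Macrophages also make Fgl2, and the same array had the highest Adgre1, which encodes the macrophage protein F4/80 (11.74, against 6.57 to 7.12 in Blimp1 gfp/gfp and 6.66 and 7.93 in the other Blimp1 +/gfp samples). Of the 7 monocyte and macrophage markers, 5 or 6 were detected on each array of both genotypes, and Itgam was detected on none. Lyz2, Fcer1g, Tyrobp and Ctss were also highest in Blimp1 +/gfp replicate 3, but Ctss hardly differed (10.53, against 10.44 in Blimp1 gfp/gfp replicate 3). Lyz2 was high in every Blimp1 +/gfp sample (10.29, 10.55 and 10.94) and in Blimp1 gfp/gfp replicate 1 (10.28). Cd14 was highest in Blimp1 gfp/gfp replicate 2 (8.52, against 8.35 in Blimp1 +/gfp replicate 3). Without Blimp1 +/gfp replicate 3 the difference in Fgl2 was -0.038 (limma, Benjamini-Hochberg adjusted p = 0.961), and the part of macrophages in these values was not tested.

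Il10ra, the chain that binds IL-10, fell in Blimp1 gfp/gfp. Probe ILMN_1219946 read 9.95, 10.05 and 10.17 on the Blimp1 gfp/gfp arrays, against 11.10, 11.02 and 11.37 on the Blimp1 +/gfp arrays. The genotypes did not overlap, and the spread within each was small. The means were 10.06 ± 0.11 in Blimp1 gfp/gfp and 11.17 ± 0.18 in Blimp1 +/gfp (SD, n = 3 each), a difference of -1.11 ± 0.15 (95% interval -1.47 to -0.74) and a 2.16-fold lower intensity (limma, Benjamini-Hochberg adjusted p = 0.0142). Its size hardly moved when single arrays were left out, at -1.18 to -1.01, but with 5 arrays the call held in only 2 of 6 omissions. It ended without Blimp1 gfp/gfp replicates 2 and 3 (limma, Benjamini-Hochberg adjusted p = 0.0569 and 0.058) and without Blimp1 +/gfp replicates 1 and 2 (0.0623 and 0.0514). Without Blimp1 +/gfp replicate 3, the array with the most macrophage and dendritic cell transcripts and the highest Il10ra, it was -1.01 (0.0249).

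Il10rb, the shared chain, did not pass the test on either of its probes, and the probes were unequal. ILMN_1250260, which the annotation ties to a RefSeq transcript, read 9.59, 9.67 and 9.85 on the Blimp1 gfp/gfp arrays, against 9.69, 9.60 and 10.05 on the Blimp1 +/gfp arrays. These overlapped throughout, with a difference of -0.07 ± 0.17 (95% interval -0.48 to 0.33; limma, Benjamini-Hochberg adjusted p = 0.878). The sign turned under median scaling (0.086) and array weights (0.098), and with the mean over both probes the difference was -0.42 (limma, Benjamini-Hochberg adjusted p = 0.405). The dimmer probe, ILMN_1256085, tied to another sequence record, read 6.49, 7.17 and 7.56 in Blimp1 gfp/gfp, against 7.60, 7.68 and 8.26 in Blimp1 +/gfp. Its values did not overlap between genotypes, and the difference was -0.77 ± 0.31 (95% interval -1.52 to -0.03, without adjustment for the number of probes). In the fit of all 15800 detected probes, in which 3.25% were past the threshold and 1.42% were past it and lower in Blimp1 gfp/gfp, it did not pass (limma, Benjamini-Hochberg adjusted p = 0.288). That fit kept the calls of Il10, Ebi3 and Il10ra, with adjusted p of 0.00118, 0.0123 and 0.0188.

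**Figure D2:**
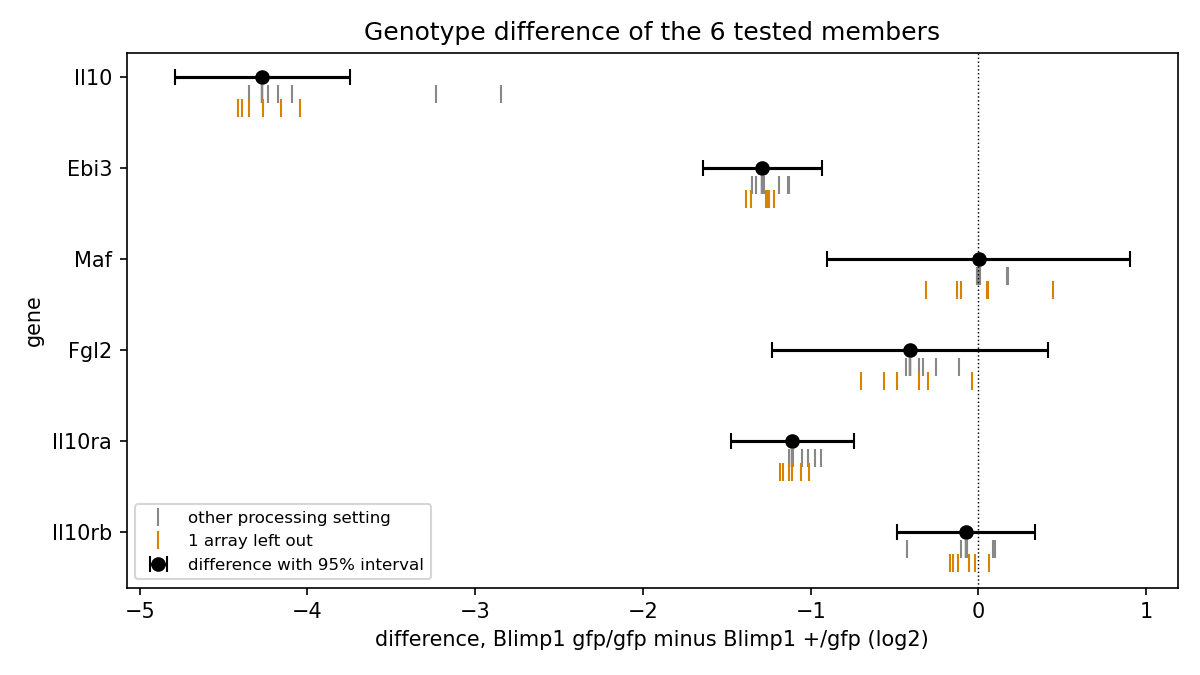
Difference in log2 intensity, Blimp1 gfp/gfp minus Blimp1 +/gfp (x axis), of the 6 tested members (y axis), with its 95% interval from limma. Grey ticks are 13 other processing settings and orange ticks the 6 omissions of 1 array. Il10, Ebi3 and Il10ra stay below 0 throughout, as does Fgl2, which did not pass the test, and Maf and Il10rb fall on both sides of it.

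Around the receptor, the 11 tested genes of signal transduction below it did not pass in either direction, with 3 at an unadjusted p under 0.05 in limma and a median difference of -0.28. Those with the smallest p were Tyk2, the kinase bound to the shared chain (9.38 ± 0.06 in Blimp1 gfp/gfp, 9.91 ± 0.20 in Blimp1 +/gfp; SD, n = 3 each; limma, Benjamini-Hochberg adjusted p = 0.117), and Il4ra, a receptor chain induced by IL-10 in macrophages (difference -0.49 ± 0.16, adjusted p = 0.165). The third, Ddit4, an inhibitor of mTORC1 signalling, was named after its values were seen and differed by 0.83 ± 0.28 (adjusted p = 0.173). Its p had rank 1077 from the smallest among the 8743 genes. Adam17, of a list below, had an unadjusted limma p of 0.0706 at rank 1936. At least 1077 and fewer than 1936 of the 8743 genes therefore had an unadjusted p under 0.05. Set against that, 3 of 11 genes does not mark this list out. The counts at this limit, here and in the lists below, were not tested against all genes. Of 11 IL-10 family cytokines and receptors, 10 had a probe and 3 were tested, with 0 past the threshold and 0 at an unadjusted limma p under 0.05. The smallest p were those of Il20ra and Ifnlr1, receptor chains for IL-20 and lambda interferon, which differed by -0.25 ± 0.13 and -0.23 ± 0.24. Ifnlr1 was detected on 1 Blimp1 gfp/gfp and 2 Blimp1 +/gfp arrays, so its level is near background.

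Transcription factors known to act on Il10 in T cells moved both ways. Of 15 tested, 2 rose, 2 fell and 11 did not pass, with a median difference of -0.02. Besides Prdm1 itself, which rose by 1.79 ± 0.20 on a probe that was detected on only 1 Blimp1 +/gfp array, Egr2, a zinc finger factor tied to IL-10 production, rose by 1.13 ± 0.18 (limma, Benjamini-Hochberg adjusted p = 0.0209). Crem, a cAMP-responsive factor, fell to 6.97 ± 0.03 in Blimp1 gfp/gfp, against 9.87 ± 0.79 in Blimp1 +/gfp (SD, n = 3 each; limma, Benjamini-Hochberg adjusted p = 0.0113). Tbx21, which encodes T-bet, fell by 1.87 ± 0.37 (adjusted p = 0.0431). The difference of Prdm1 was 0.78 with no background correction and 1.01 with normexp at an offset of 50, and that of Crem -2.06 and -2.31. Prdm1 was not past the threshold when its probes were averaged (adjusted p = 0.102) or without Blimp1 gfp/gfp replicate 1 (0.0957). In that omission its standard error was 0.40, against 0.20 with all arrays. The probe that stood for Prdm1 there is not given here, so effects of the array and of the probe cannot be told apart. The other calls did not hold in every omission of 1 array. That of Crem ended without Blimp1 gfp/gfp replicate 3 or Blimp1 +/gfp replicate 2 (0.0533 and 0.0589). Its difference there was -2.90 and -2.86, against -2.90 with all arrays. Egr2 was past the threshold only without Blimp1 gfp/gfp replicate 1 or Blimp1 +/gfp replicate 3 (0.0751 to 0.0954 in the other 4 omissions), and Tbx21 only without Blimp1 gfp/gfp replicate 3 (0.0564 to 0.147 in the other 5).

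In the list around Ebi3, 4 of the 9 IL-12 family subunits and receptors were tested, all of them receptor chains, and 1 fell. This was Il12rb1, the receptor chain shared by IL-12 and IL-23, with 10.70 ± 0.17 in Blimp1 gfp/gfp and 11.88 ± 0.28 in Blimp1 +/gfp (SD, n = 3 each; limma, Benjamini-Hochberg adjusted p = 0.0209). Its call held only without Blimp1 +/gfp replicate 3 among the 6 omissions (0.0564 to 0.0956 in the other 5), and it ended with median scaling (0.0687). The list's median difference was -1.08. The other tested chains, named after their values were seen, did not pass. Il12rb2, detected on 1 Blimp1 gfp/gfp array, differed by -2.69 ± 0.59 and Il6st by -0.98 ± 0.26 (limma, Benjamini-Hochberg adjusted p = 0.0577 and 0.098). Il27ra differed by 0.11 ± 0.20 (adjusted p = 0.851). For Fgl2, the 2 tested genes of its list were the Fc receptors. Fcgr2b, the inhibitory receptor through which FGL2 acts, fell by 2.68 ± 0.30 (limma, Benjamini-Hochberg adjusted p = 0.00744), a call that held in all 6 omissions, but the difference was -1.44 with no background correction and -1.75 with normexp at an offset of 50. It read 6.08, 5.57 and 6.06 in Blimp1 gfp/gfp, where 2 of 3 arrays detected it, against 8.14, 8.41 and 9.20 in Blimp1 +/gfp. The activating receptor Fcgr3, named after its values were seen, did not pass (difference -1.99 ± 0.96; limma, Benjamini-Hochberg adjusted p = 0.335), and its values of 6.32, 5.61 and 5.02 in Blimp1 gfp/gfp overlapped the 6.12, 6.81 and 9.98 of Blimp1 +/gfp. The median difference of the 2 genes was -2.33. Fcgr2b is also made by macrophages and B cells, and it was highest in Blimp1 +/gfp replicate 3, where the macrophage markers were highest. Without that sample its difference was -2.40. In the other Blimp1 +/gfp samples the summed monocyte and macrophage markers (3294 and 3874) were still above those of Blimp1 gfp/gfp (2035 to 3234). The part of other cells in the Fcgr2b difference was not tested.

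The lists that belong to Areg and Maf gave no calls. Of 12 EGF receptor ligands and their processing genes, 11 had a probe, 4 were tested and 0 were past the threshold, with 0 at an unadjusted limma p under 0.05. Adam17, the sheddase of amphiregulin, differed by -0.35 ± 0.17, and the related Adam10 by 0.34 ± 0.18 (limma, Benjamini-Hochberg adjusted p = 0.319 and 0.38). Of 8 Maf family genes and their Bach partners, 3 were tested, with 0 past the threshold and 0 at an unadjusted limma p under 0.05. The small Maf protein gene Maff differed by 0.25 ± 0.16 and Bach1, a repressor that pairs with small Maf proteins, by -0.18 ± 0.22.

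The list of other suppressive mediators also held regulatory T cell markers such as Tnfrsf18, and its genes did not share one direction. Of 16 tested, 4 rose, 3 fell and 9 did not pass, with a median difference of 0.03. Those that fell were Havcr2, the gene of the inhibitory receptor TIM-3 (difference -2.93 ± 0.39), Cd274, which encodes PD-L1, the ligand of PD-1 (-0.95 ± 0.14), and Tnfrsf18, which encodes GITR (-1.11 ± 0.18). The genes that rose were Lag3, an inhibitory receptor for MHC class II (1.76 ± 0.20), Lgals3, which encodes galectin-3 (1.31 ± 0.22), Nt5e, which encodes the ectonucleotidase CD73 (1.57 ± 0.32), and Il1r2, the decoy receptor of IL-1 (1.62 ± 0.33). Lag3 was past the threshold in all 6 omissions. The others were past it in fewer: Havcr2 and Cd274 in 3, Tnfrsf18 and Lgals3 in 2, and Nt5e and Il1r2 in 1. Leaving out Blimp1 gfp/gfp replicate 3, Blimp1 +/gfp replicate 1 or Blimp1 +/gfp replicate 2 each ended all 6 of these calls (limma, Benjamini-Hochberg adjusted p of 0.0566 to 0.151). Blimp1 gfp/gfp replicate 1 ended those of Tnfrsf18, Nt5e and Il1r2 (0.0576 to 0.0969), and Blimp1 gfp/gfp replicate 2 those of Lgals3, Nt5e and Il1r2 (0.0936 to 0.138). With median scaling the calls of Cd274 and Tnfrsf18 ended (0.0564 and 0.0704). Without a filter on dim probes those of Nt5e and Il1r2 ended (0.0646 and 0.0654), and with cyclic loess that of Nt5e (0.0513). The difference of Havcr2 was -2.29 with no background correction and -2.50 with normexp at an offset of 50.

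**Figure D3:**
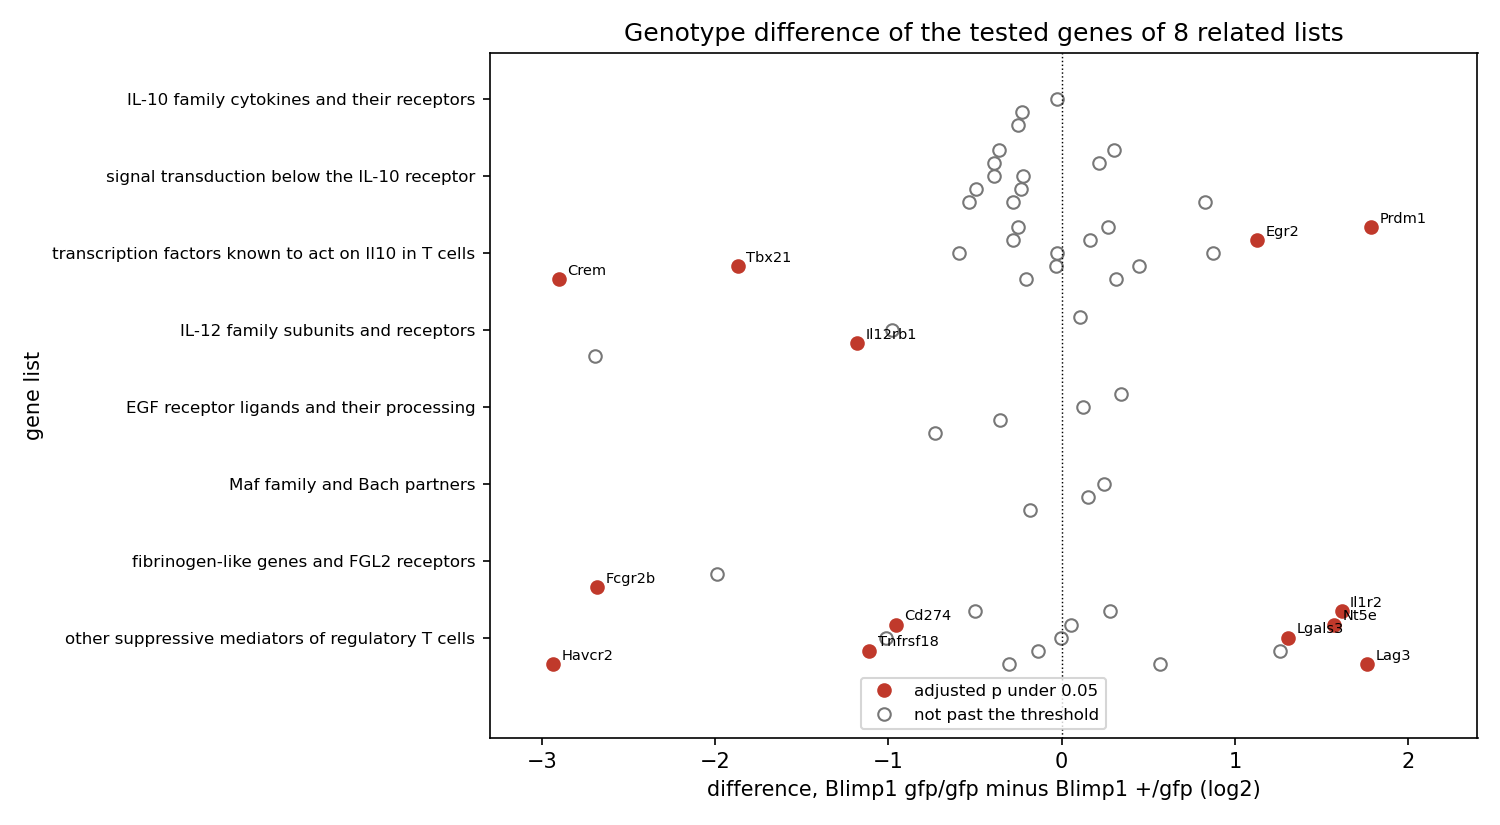
Difference in log2 intensity, Blimp1 gfp/gfp minus Blimp1 +/gfp (x axis), of every tested gene of 8 related lists (y axis), filled and named where the limma adjusted p was under 0.05. Genes past the threshold lie on both sides of 0 among the transcription factors and the other suppressive mediators.

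The genes whose levels ran most like those of Il10 over the 6 arrays were ranked. With each gene centred on its own mean, the root mean square difference from Il10 was smallest for Mgmt, a DNA repair methyltransferase, at 0.30 log2 units, and for Mmp9, a matrix metalloproteinase, at 0.33. Next came the Y-linked genes Eif2s3y and Kdm5d, and Gm4951, at 0.61, 0.61 and 0.69. Mgmt read 6.56, 6.18 and 6.29 in Blimp1 gfp/gfp, against 10.60, 10.67 and 10.84 in Blimp1 +/gfp, and Mmp9 read 6.18, 5.70 and 6.47 in Blimp1 gfp/gfp, against 10.24, 9.78 and 10.60 in Blimp1 +/gfp. All 5 were lower in Blimp1 gfp/gfp without overlap. Eif2s3y and Kdm5d were not detected on any Blimp1 gfp/gfp array. In the background-corrected values they were at least 29.1-fold and 5.80-fold lower there by the group means. This takes as the level of an undetected probe the lowest value of any detected probe on that array. The bounds hold only for these values, since with no background correction the differences were -3.37 and -1.68 log2 units. The likeness is measured mostly on the step between genotypes, and within Blimp1 +/gfp the 2 nearest genes did not share the high value of Il10 in replicate 1.

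**Figure D4:**
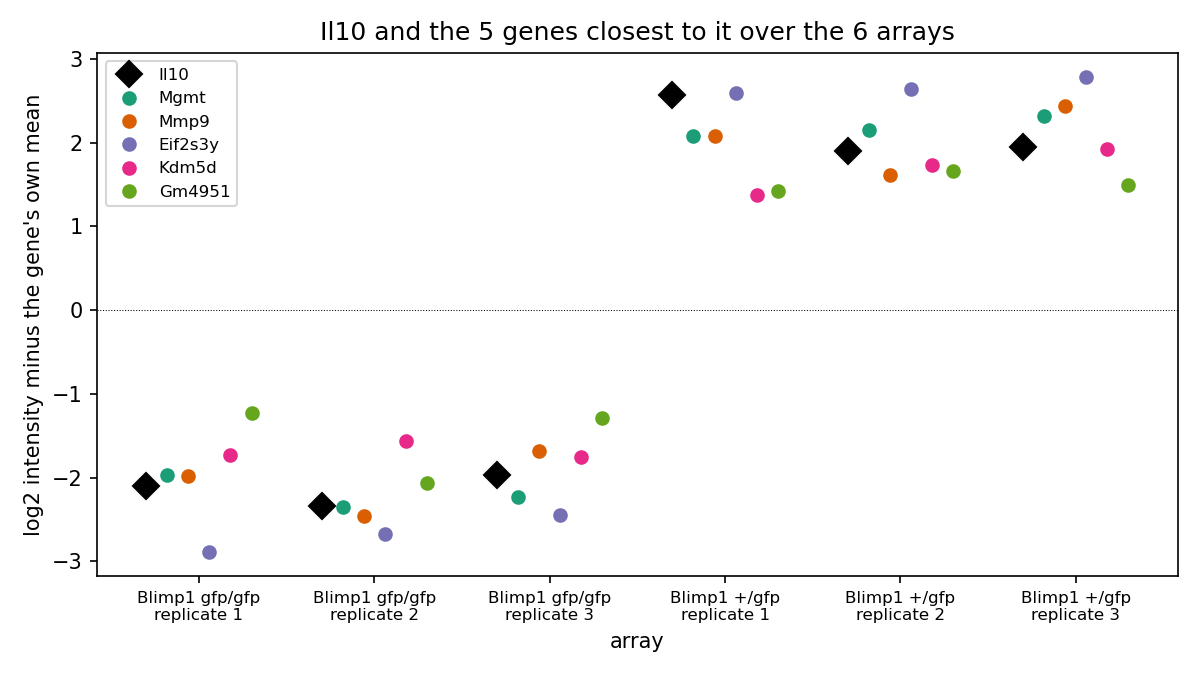
Normalized log2 intensity minus each gene's own mean (y axis) on the 6 arrays (x axis) for Il10 (diamonds) and the 5 tested genes with the smallest root mean square difference from it (circles). All 6 genes lie below 0 on the Blimp1 gfp/gfp arrays, where Eif2s3y and Kdm5d were not detected, and above 0 on the Blimp1 +/gfp arrays.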

How the data were processed

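RNA of 3 Blimp1 gfp/gfp and 3 Blimp1 +/gfp samples was measured on 1-colour Illumina arrays, with groups and replicate numbers from the labels. The deposited signal table gives the mean bead intensity per probe, neither background-subtracted nor normalized judging by its values, and the deposited detection p-values stand beside it. The submitters' processing notes name BeadStudio and limma, with no version. The authors' deposited log2 values differed from the values computed here by a median of 0.00293 and at most 0.0975, their array medians were 5.23 to 5.24, and the sources used here do not state how they were set. They served as an alternative.

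Signals were corrected and quantile-normalized with neqc of limma 3.58.1 (R 4.3.3; offset 16), which compresses dim values. Probes detected (p under 0.05) on at least 3 of 6 arrays were kept, 15800 of 46632. Of all probes the platform annotation gave 1 symbol to 29976 and several to 10. The brightest probe stood for each of 8743 genes. Genotypes were compared with lmFit and eBayes, with Benjamini-Hochberg adjustment over all genes tested, and the fit was tested on simulated data. The number of arrays limits the precision. The members and gene lists were chosen with earlier results of these data known. The text names the members, every gene of a list past the threshold (otherwise the 2 with the smallest p), the 5 genes most like Il10, and markers given beside a member. Alternatives changed background correction, normalization, filter, probe summary, variance model, array weights, a replicate block and the arrays included. Promoter sequences are from RefSeq (GRCm38.p6). Figures were drawn with matplotlib 3.10.9.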

Additional observations from a re-analysis of the deposited data

How the results depend on the processing

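The differences of Il10, Ebi3 and Il10ra kept their negative sign in all 19 alternatives run, as did that of Fgl2, which passed the test in none, and the calls of Ebi3 and Il10ra ended only in the single-array omissions given above. Over the 6 omissions of 1 array, the count of genes past the threshold was 71 to 347, against 360 with all arrays, and the count of members past it 1 to 3. Over these omissions the difference was -4.41 to -4.05 for Il10, -1.39 to -1.22 for Ebi3, -1.18 to -1.01 for Il10ra, -0.70 to -0.038 for Fgl2, -0.17 to 0.063 for Il10rb, -0.32 to 0.45 for Maf and -0.35 to 0.0038 for Bach1. Array weights gave 827 genes past the threshold. The sign turned for Il10rb under median scaling (0.086) and array weights (0.098), and for Maf under cyclic loess (-0.0090) and in the authors' deposited log2 values (-0.0057); none of these passed the test, and the cause was not tested. The fit with the replicate block called 171 genes and kept Il10, Ebi3 and Il10ra (limma, Benjamini-Hochberg adjusted p = 0.0109, 0.0389 and 0.0443). The labels do not say whether the replicate numbers pair the samples. Deviations of same-numbered arrays correlated at 0.189, -0.0759 and 0.00102 over genes, which with 3 arrays per genotype cannot decide it. With the replicate block Egr2, Tbx21, Cd274, Tnfrsf18, Lgals3, Nt5e and Il1r2 were no longer called (0.0529 to 0.111). With every kept probe in the fit Nt5e and Il1r2 were not called (both 0.0513), nor was Tbx21 without a filter on dim probes (0.0646) or with array weights (0.0507). The signal over background limits Il10, whose Blimp1 gfp/gfp level lies near that of undetected probes, so the size of its difference is uncertain.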
